A study of Mus musculus and Rattus norvegicus with 85 samples.

Results

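Lungs of mice exposed to 13 ppm chloroprene for 15 exposure days were compared directly with lungs of mice exposed to the same concentration for 5 exposure days. The comparison used the 10 mouse lung arrays whose titles give this concentration, of 85 arrays in the whole series: 5 lungs at 15 days (mice 157, 158, 159, 160 and 161) and 5 at 5 days (mice 149, 151, 152, 153 and 154), and values for single mice are given in this order throughout. All were female B6C3F1/Crl mice with no allele or transgene named, 10 weeks old when exposure began. They breathed chloroprene vapour in whole-body chambers for 6 hours a day on 5 days a week and were killed on day 19 or day 5. The right lung lobes were kept in RNAlater, and each lung was hybridised to one Affymetrix Mouse430_2 array. The other mouse groups used here breathed 0.3, 2 or 90 ppm for 15 or 5 exposure days, and a group at 0 ppm was measured at 5 days only. No group at 0 ppm after 15 days was analysed here, so longer exposure, older age and the later day of sacrifice cannot be told apart in any value below. The duration field of mouse 157 gives 5 days, whereas its title and treatment protocol give 15, and the title was followed.

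Chloroprene is the monomer of neoprene rubber. In the mouse lung, cytochrome P450 enzymes of club cells, among them Cyp2e1 and Cyp2f2, turn it into reactive epoxides, which are removed by epoxide hydrolysis and by conjugation to glutathione. The transcription factor NRF2 raises the enzymes that make glutathione and reduce quinones. The endoplasmic reticulum stress response raises chaperones when proteins fold poorly, p53 raises cell cycle inhibitors after DNA damage, and stress hormones, the daily clock and handling each move their own sets of lung transcripts. Values are log2 signals per probe set, on which 1 unit is a change of 2-fold, and every difference is the mean at 15 days minus the mean at 5 days. The number of arrays, 5 in each group, limits the precision.

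The arrays carried lung RNA: the surfactant gene Sftpc read 15.22 to 15.26 at 15 days and 15.22 to 15.30 at 5 days, the club cell secretoglobin Scgb1a1 read 15.15 to 15.25 and 15.15 to 15.22, and the alveolar type 1 cell receptor Ager read 14.99 to 15.05 and 14.86 to 15.05. Genes of neighbouring tissues gave signal too. The atrial myosin Myl7 read 11.11 to 12.02 at 15 days and 10.26 to 11.80 at 5 days, and the fat cell hormone Adipoq read 7.32 to 9.65 and 7.44 to 11.36. Both ranges overlapped between the times. The liver gene Alb read 6.60 to 6.89 and 6.57 to 7.03, close to the filter of 6.67 for low signal, and the thymocyte gene Rag1 lay below it on all 10 arrays.

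Several measures of the RNA and of the arrays separated the times without overlap. The RNA integrity number was 9.4 to 9.6 at 15 days and 8.6 to 9.1 at 5 days. The signal of the actin control at its 3′ end minus that at its 5′ end was 0.34 to 0.49 at 15 days and 0.54 to 0.68 at 5 days. The 5′ probe sets of the bacterial poly-A transcripts that are spiked into the RNA read 5.04 to 5.12 at 15 days and 5.22 to 8.86 at 5 days. Each of these separated the groups without overlap, with an exact two-sided permutation p of 0.0079, the smallest that 5 against 5 arrays can give, and 0.0099 after Benjamini-Hochberg adjustment over 5 such measures. The 3′ minus 5′ difference of the Gapdh control did not: it was -0.10 to 0.06 at 15 days and -0.14 to -0.01 at 5 days. Its mean was higher at 15 days, opposite to actin (exact permutation p = 0.0873). The spike-in signals of the 45 mouse arrays fell into 3 patterns, low, middle and full. At 13 ppm, mice 158 to 161 had the low pattern, mice 149 and 151 to 153 the full one, and mice 157 and 154 the middle one. Time can therefore be compared within a pattern only between mouse 157 and mouse 154. The first principal component of the 10 arrays carried 56.2% of the variance and did not separate the times: 4 of the lungs at 15 days scored 11.1 to 26.1 and mouse 161 scored -9.67, while 4 lungs at 5 days scored -31.2 to -6.69 and mouse 149 scored 10.6.

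**Figure D1:**
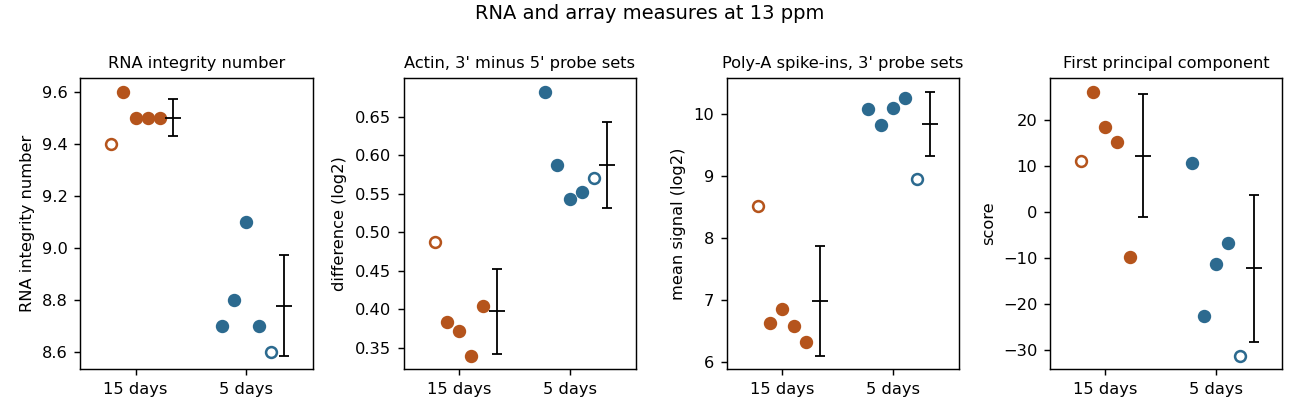
RNA integrity number, actin 3′ minus 5′ difference (log2), mean 3′ signal of the poly-A spike-ins (log2) and first principal component score for each lung at 13 ppm, with 15 days left of 5 days. Points are single mice, open points are mice 157 and 154 with the middle spike-in pattern, and bars show the mean and SD of 5; the first 3 measures do not overlap between the times, and in the last mouse 161 and mouse 149 lie among the other group.

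Of 13796 genes tested, 314 (2.28%) differed between 15 and 5 days at 13 ppm by limma at a Benjamini-Hochberg adjusted p below 0.05. Of these 159 (1.15%) rose and 155 (1.12%) fell, 55 of them by at least 1.5-fold (36 up, 19 down). The largest rise was that of the surface proteoglycan gene Gpc3 (1.27) and the largest fall that of the ubiquitin-activating enzyme gene Uba6 (-1.42). The median rise among called genes was 0.42 and the median fall was -0.35, against a median of 0.00 over all genes. The values of the 2 times did not overlap for 224 of the 314 genes, beside 912 of all 13796 genes (6.61%). The 314 had been called on these same arrays, so this contrast is no separate evidence. After quantile normalization 302 genes were called, of which 195 were higher and 107 lower, so the even split between directions depends on the scaling.

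This count rested on single lungs. It was 0 by limma without mouse 158, 159 or 160 at 15 days or without mouse 154 at 5 days, with 2366, 2704, 2702 and 2281 genes at an unadjusted p below 0.05, beside 3514 with all arrays. It was 23, 19 and 90 without mouse 151, 152 or 153, and 1034 and 1246 without mouse 161 or mouse 149, the lungs that lay on the other group's side of the first principal component. All 314 genes kept their sign in each of these fits. These fits and those below reuse arrays on which the genes were called, so kept signs are no separate evidence. With the spike-in pattern as a term of the fit, a setting chosen after the data were seen, no gene was called (1392 at an unadjusted p below 0.05, smallest adjusted p = 0.180), and likewise with RNA integrity as a covariate (1456). All 314 again kept their sign, 205 kept an unadjusted p below 0.05 under the spike-in term, and the medians shrank to 0.24 and -0.24. Between low and full spike-in patterns, at equal time and concentration, 2119 of all 13796 genes differed. Of the 314 genes, 122 were among them, each in the same direction as over time. The arrays at 13 ppm, from which the 314 were called, also entered this estimate. Between mouse 157 and mouse 154, which share a pattern, 309 of the 314 differed in the same direction, but both arrays had entered the calls. Time, spike-in pattern and RNA integrity cannot be told apart at this concentration.

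Among the 12 largest rises were genes of the matrix and the cell surface. Gpc3, a heparan sulfate proteoglycan of the cell surface, read 9.09, 10.09, 10.14, 10.30 and 10.28 at 15 days, against 8.47, 8.83, 9.02, 8.92 and 8.28 at 5 days. The groups did not overlap, and mouse 157 lay about 1 unit below the other lungs at 15 days and close to those at 5 days. The difference was 1.27 ± 0.33 (SE, adjusted p = 0.0371), which is 2.42-fold, and it was the largest rise of all called genes. Mmp14, a membrane-bound metalloproteinase that cuts collagen, read 9.36, 9.90, 9.64, 9.74 and 9.18 at 15 days, against 8.92, 8.38, 8.74, 8.68 and 8.15 at 5 days. All lungs at 15 days lay above all at 5 days, by 0.99 ± 0.21 (SE, adjusted p = 0.0231), and Mmp14 was one of the genes whose difference hardly moved with the spike-in term (0.94). Mfap4, a glycoprotein of elastic microfibrils, read 13.72, 13.71, 13.64, 13.71 and 13.57 at 15 days, against 13.27, 12.61, 12.89, 13.06 and 12.38 at 5 days. The lungs at 15 days lay close together and above every lung at 5 days, which spread more widely, and the difference was 0.83 ± 0.16 (SE, adjusted p = 0.0177). It was the single called member of 27 measured fibroblast and matrix genes, of which 11 had an unadjusted p below 0.05 (beside 25.5% of all genes) and 20 lay above 0 (beside 50.6% of all genes), with a list median of 0.22. The summed signal of that list was 91946 to 105909 at 15 days and 67732 to 94459 at 5 days, so the ranges overlapped. In bulk lung, fewer cells of a type and less RNA per cell cannot be told apart.

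Other rises at the surface or in signalling were smaller. Aph1a, a subunit of the gamma-secretase complex, rose by 0.85 ± 0.16 (SE, adjusted p = 0.0177) without overlap of the groups, and its other probe sets differed by 0.40 and 0.38. Cmklr1, the receptor of the chemoattractant chemerin, rose by 0.81 ± 0.22 (SE, adjusted p = 0.0404); 4 of 5 lungs at 15 days lay above all lungs at 5 days. Arhgap32, a GTPase-activating protein, was called at 1.05 ± 0.30 (SE, adjusted p = 0.0472), but mouse 157 read 7.35, inside the 7.26 to 7.49 of the lungs at 5 days, while the other 4 read 8.60 to 8.75. Another probe set of Arhgap32 above the filter differed by -0.14.

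Genes of transcription made up the rest of the 12 largest rises. Junb, a subunit of the AP-1 factor, read 9.58, 9.72, 9.49, 9.68 and 9.48 at 15 days, against 8.72, 8.84, 8.70, 8.36 and 8.66 at 5 days. The groups were separated by more than the range of either, and the difference was 0.93 ± 0.20 (SE, adjusted p = 0.0231). Polr2a, the largest subunit of RNA polymerase II, rose by 0.93 ± 0.26 (SE, adjusted p = 0.0428), and this was 0.06 with the spike-in term. Nfic and Kdm2a, a CCAAT-binding factor and a histone demethylase, rose by 0.79 ± 0.20 (SE, adjusted p = 0.0345) and 0.79 ± 0.19 (SE, adjusted p = 0.0312), and with the spike-in term these were 0.20 and 0.22. Neither gene overlapped between the times. The other probe sets above the filter differed by 0.38 to 1.44 for Nfic and by 0.05 and 0.29 for Kdm2a. Lbh, a transcription cofactor of heart and limb development, rose by 0.97 ± 0.27 (SE, adjusted p = 0.0457), and Hoxa4, a homeobox factor of the developing lung, by 0.83 ± 0.20 (SE, adjusted p = 0.0312). For each of them 4 of 5 lungs at 15 days lay above all lungs at 5 days, and mouse 161 was the lowest of the 15-day lungs. Other probe sets of Lbh differed by 0.56 and 0.25.

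**Figure D2:**
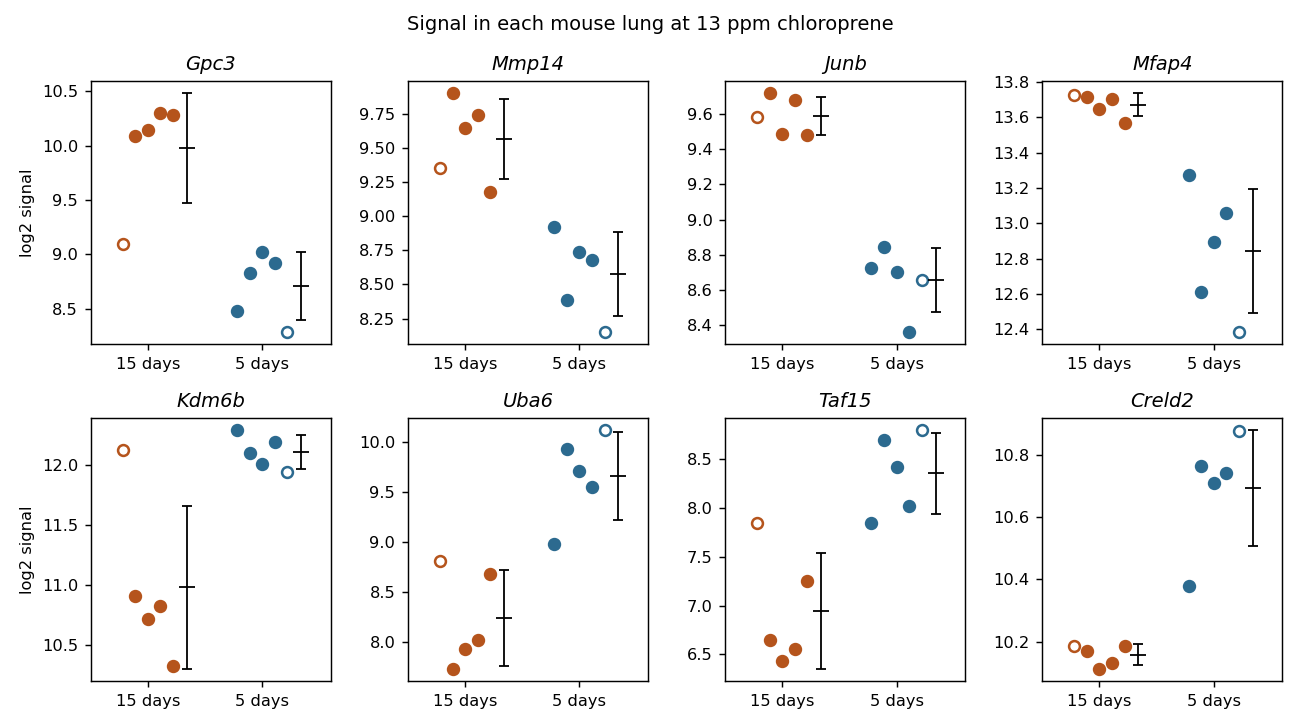
Log2 signal of 8 called genes in each lung at 13 ppm, with 15 days left of 5 days. Points are single mice, open points are mice 157 and 154 with the middle spike-in pattern, and bars show the mean and SD of 5; Mmp14, Junb, Mfap4 and Creld2 separate fully, Gpc3 and Uba6 separate with mouse 157 nearest to the 5-day lungs, and in Kdm6b mouse 157 lies among them.

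The 2 largest falls were those of a ubiquitin enzyme and an RNA-binding protein. Uba6, an enzyme that activates ubiquitin, read 8.81, 7.73, 7.93, 8.02 and 8.68 at 15 days, against 8.98, 9.93, 9.71, 9.55 and 10.12 at 5 days. The groups did not overlap; mice 157 and 161 were the highest at 15 days and mouse 149 the lowest at 5 days. The difference was -1.42 ± 0.35 (SE, adjusted p = 0.0317), 2.68-fold lower, and the other 2 probe sets of Uba6 above the filter differed by -0.68 and -0.63. Taf15, an RNA-binding protein, read 7.84, 6.65, 6.43, 6.55 and 7.25 at 15 days, against 7.84, 8.70, 8.42, 8.02 and 8.80 at 5 days. Mouse 157 overlapped with mouse 149, and the difference was -1.41 ± 0.37 (SE, adjusted p = 0.0376). Celf2, a splicing regulator, fell, with a difference of -0.89 ± 0.23 (SE, adjusted p = 0.0354), and Tnrc6a, the scaffold that links Argonaute to microRNA silencing, fell with one of -0.69 ± 0.17 (SE, adjusted p = 0.0349). Neither of these overlapped between the times. The 3 other probe sets of Celf2 above the filter differed by -0.40, -0.51 and -0.37, and of 8 others of Tnrc6a 6 differed by -0.42 to -0.70 and 2 by 0.09 and 0.11.

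Kdm6b, a demethylase that removes repressive histone marks, had probe sets that disagree. The probe set used read 12.13, 10.91, 10.72, 10.83 and 10.32 at 15 days, against 12.30, 12.10, 12.01, 12.19 and 11.94 at 5 days. Mouse 157 lay among the lungs at 5 days and the other 4 lay at least a unit below them, and the difference was -1.13 ± 0.27 (SE, adjusted p = 0.0317). A second probe set of Kdm6b differed by 0.71, in the opposite direction (adjusted p = 0.0179 over all probe sets), and the remaining one by 0.0042. Between mice 157 and 154, with the same spike-in pattern, Kdm6b differed by 0.19. Arhgap32, likewise with mouse 157 on the other side, differed by 0.08 in that pair.

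Among the other large falls were genes of the cytoskeleton, Golgi and mitochondrion. Plk4, the kinase that starts centriole duplication, fell, with a difference of -0.84 ± 0.23 (SE, adjusted p = 0.0461), with 4 of 5 lungs at 15 days below all lungs at 5 days. Camsap2, which caps microtubule minus ends, fell, with a difference of -0.65 ± 0.19 (SE, adjusted p = 0.0499), and Trip11, a golgin, fell with one of -0.80 ± 0.21 (SE, adjusted p = 0.0399). Mmut, the mitochondrial methylmalonyl-CoA mutase, fell, with a difference of -0.67 ± 0.17 (SE, adjusted p = 0.0322), but another probe set of Mmut above the filter differed by -0.16. Alcam, a cell adhesion molecule, was called at -0.67 ± 0.17 (SE, adjusted p = 0.0356), and 3 other probe sets of Alcam differed by -0.20, -0.44 and -0.49. The remaining one differed by 0.57 (adjusted p = 0.118 over all probe sets). Ascc3, a helicase, and Zfp53, a zinc finger gene, fell, with a difference of -0.73 ± 0.21 (SE, adjusted p = 0.0475) for Ascc3 and -1.12 ± 0.30 (SE, adjusted p = 0.0378) for Zfp53. In all, 8 of the 12 largest falls and 8 of the 12 largest rises did not overlap between the times, beside 6.61% of all genes. These genes had been chosen for their differences in the same arrays, so the counts are no separate evidence.

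Endoplasmic reticulum stress genes were the list with the most falls. Of 20 measured members 3 fell and none rose, beside falls of 1.12% of all genes. An unadjusted p below 0.05 was reached by 12 of the 20, beside 25.5% of all genes, and the median was -0.20, beside 0.00 over all genes. At 0.3, 2 and 90 ppm the median time difference of the list was -0.16, -0.18 and -0.01. Creld2, an endoplasmic reticulum protein induced by stress, read 10.19, 10.17, 10.11, 10.13 and 10.19 at 15 days, against 10.38, 10.76, 10.71, 10.74 and 10.88 at 5 days. The lungs at 15 days lay close together and below every lung at 5 days, of which mouse 149 was the lowest. The difference was -0.54 ± 0.11 (SE, adjusted p = 0.0177), tied for the smallest adjusted p of the comparison. Manf, a secreted protein induced with it, read 11.44, 11.37, 11.43, 11.50 and 11.58 at 15 days, against 11.49, 11.95, 11.88, 11.96 and 12.03 at 5 days. Mouse 149 lay among the lungs at 15 days, and the difference was -0.40 ± 0.10 (SE, adjusted p = 0.0359). Sel1l, an adaptor of the complex that exports misfolded proteins, fell, with a difference of -0.30 ± 0.08 (SE, adjusted p = 0.0454) without overlap; of its other probe sets 1 differed by -0.24 and 3 by 0.03, 0.03 and 0.15. With the spike-in term Creld2, Manf and Sel1l differed by -0.49, -0.35 and -0.34, none past the threshold.

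The promoters of this list were searched because several chaperone genes of this response are known to share an element. The endoplasmic reticulum stress element was taken as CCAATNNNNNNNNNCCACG, and a second form as ATTGGNCCACG, each on both strands, in the 250 bases before the start site. Of the 20 list genes 18 had a RefSeq promoter (GRCm38.p6) and 8 of these held an element, beside 47 of all 32851 promoters (0.143%). The list counts are of genes and the background is of single promoters. The element is known from genes of this response, so its higher share in the list is no finding of these data. The elements of 5 of the 8 are shown in capitals with their flanks, because Creld2 fell and the other 4, not past the threshold, carry the same letters and differed by other amounts; they were chosen after their values were seen. Each is written 5′ to 3′ along the gene's strand, and the capitals of Creld2 and Calr are the element's reverse complement.
Creld2 (chr15:88819508-88819550, plus strand): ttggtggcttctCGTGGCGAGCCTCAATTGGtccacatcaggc
Hspa5 (chr2:34772013-34772055, plus strand): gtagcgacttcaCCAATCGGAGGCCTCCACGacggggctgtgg
Pdia6 (chr12:17266479-17266521, plus strand): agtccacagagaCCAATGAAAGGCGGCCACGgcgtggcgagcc
Dnajc3 (chr14:118937815-118937857, plus strand): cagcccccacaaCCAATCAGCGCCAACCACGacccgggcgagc
Calr (chr8:84847063-84847105, minus strand): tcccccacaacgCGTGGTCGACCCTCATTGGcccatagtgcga

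Of the genes with an element, only Calr differed above 0, and all the others differed below 0. In the whole list only 4 of 20 measured members differed above 0, so most genes of the list lay below 0 too. The difference of Creld2 was -0.54. Hspa5, the main chaperone of the compartment, read 12.82, 12.72, 12.80, 12.91 and 13.26 at 15 days, against 12.96, 13.32, 13.25, 13.33 and 13.43 at 5 days. Mouse 161 overlapped with the lungs at 5 days, and the difference of -0.36 ± 0.11 (SE) missed the threshold (adjusted p = 0.0647). Pdia6, a disulfide isomerase, differed by -0.25 ± 0.08 (adjusted p = 0.0653), and Dnajc3, a cochaperone, by -0.42 ± 0.17 (adjusted p = 0.131). Calr, a calcium-binding chaperone with the element, differed by 0.15 ± 0.09 (adjusted p = 0.287), in the other direction. Sel1l fell without a match in this window, and Manf had no promoter in the table. Herpud1, with the second form of the element, differed by -0.15 ± 0.11 (adjusted p = 0.427), and Hsp90b1, with 2 copies of the first, by -0.36 ± 0.23 (adjusted p = 0.328). Canx, a lectin chaperone with the first form, differed by -0.30 ± 0.12 (adjusted p = 0.124). The match to the letters is a description of these windows.

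MHC class II genes held the only other list with more than 1 call. Of 10 measured members 2 rose, beside rises of 1.15% of all genes. All 10 lay above 0, beside 50.6% of all genes, and 3 had an unadjusted p below 0.05, beside 25.5% of all genes. The median was 0.20, and at 0.3, 2 and 90 ppm the median time difference of the list was 0.14, 0.23 and 0.08. Cd74, the invariant chain that guides class II molecules to the endosome, read 13.86, 14.03, 13.90, 13.87 and 13.82 at 15 days, against 13.67, 13.46, 13.69, 13.58 and 13.16 at 5 days. The groups did not overlap, and the difference was 0.38 ± 0.10 (SE, adjusted p = 0.0355). Ciita, the factor that switches class II genes on, read 7.61, 7.64, 7.50, 7.53 and 7.37 at 15 days, against 7.27, 6.97, 7.29, 7.04 and 6.94 at 5 days. It too separated the groups, by 0.43 ± 0.12 (SE, adjusted p = 0.0459). The antigen-presenting genes themselves differed less: H2-Ab1 by 0.22 ± 0.11 (adjusted p = 0.200) and H2-Aa by 0.17 ± 0.09 (adjusted p = 0.195). Cells that carry class II molecules were followed by their own markers: 14 of 17 B and plasma cell genes lay above 0, with a median of 0.39 and none called (4 at an unadjusted p below 0.05), and their summed signal was 3854 to 8695 at 15 days and 3228 to 7766 at 5 days. The B cell surface gene Ms4a1 read 8.37, 8.02, 8.22, 7.55 and 7.19 at 15 days, against 7.98, 6.65, 7.89, 7.24 and 7.64 at 5 days. These values interleaved, and the difference of 0.39 ± 0.30 (SE, adjusted p = 0.424) did not pass. T and natural killer cell genes had a median of 0.19 with none of 22 called (6 at an unadjusted p below 0.05). The part of these cells in the class II values was not tested.

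Of 27 measured targets of the antioxidant factor NRF2, 1 rose and none fell (3.7%, beside 2.28% called over all genes), with a median of 0.06. It was Gclm, the modifier subunit of glutamate-cysteine ligase, which read 11.39, 11.55, 11.44, 11.20 and 11.17 at 15 days, against 10.90, 11.20, 11.06, 10.65 and 11.10 at 5 days. Mice 160 and 161 reached the level of mouse 151, and the difference was 0.37 ± 0.09 (SE, adjusted p = 0.0356), but a second probe set of Gclm differed by -0.02. Gclc, the catalytic subunit of the same enzyme, averaged 12.27 ± 0.19 at 15 days and 12.41 ± 0.35 at 5 days (SD, n = 5 each). The groups overlapped, and the difference of -0.15 had a 95% confidence interval from -0.41 to 0.12. Another probe set of Gclc above the filter differed by 0.14. Nqo1, a quinone reductase, differed by 0.16, with an interval from -0.10 to 0.43, and Cbr3, a carbonyl reductase, by 0.05, from -0.20 to 0.29. Aldh3a1, an aldehyde dehydrogenase, differed by 0.24, from -0.11 to 0.59, and Ces1g, a carboxylesterase, by -0.08, from -0.44 to 0.28. These intervals are for single genes, unadjusted, and allow a difference of about 1.5-fold at their far ends for Aldh3a1 and less for Gclc, Nqo1, Cbr3 and Ces1g.

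None of 15 cytochrome P450 and flavin monooxygenase genes was called, beside 2.28% of all genes. By limma 3 had an unadjusted p below 0.05, beside 25.5% of all genes, and the median was -0.15. Cyp2e1 read 10.05, 9.36, 9.29, 9.76 and 9.03 at 15 days, against 9.67, 9.91, 8.73, 9.25 and 10.95 at 5 days. Mouse 154 was the highest and mouse 152 the lowest, both at 5 days, and the interval from -0.79 to 0.38 leaves room for changes in both directions. Cyp2f2 read 14.86 to 14.95 at 15 days and 14.86 to 14.94 at 5 days. Its interval was from -0.06 to 0.09, but Cyp2f2, Scgb1a1 and Sftpc lay within 0.5 of the highest value of the table, 15.3.

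Of 57 measured cell cycle and p53 genes 1 was called (1.75%, beside 2.28% of all genes). Pcna, the sliding clamp of DNA replication, read 12.25, 12.29, 12.37, 12.17 and 12.29 at 15 days, against 12.40, 12.54, 12.66, 12.58 and 12.60 at 5 days. The groups did not overlap and the difference was -0.28 ± 0.07 (SE, adjusted p = 0.0354), yet it was the single called member of 36 cell cycle genes (4 at an unadjusted p below 0.05, beside 25.5% of all genes), whose median was 0.01. The proliferation marker Mki67 read 6.80, 6.54, 6.49, 6.73 and 6.86 at 15 days, against 6.61, 7.18, 7.20, 7.34 and 7.68 at 5 days. Mice 157, 160 and 161 lay above mouse 149, and the difference of -0.52 ± 0.24 (SE, adjusted p = 0.175) did not pass. None of 21 p53 targets was called. By limma 7 had an unadjusted p below 0.05, beside 25.5% of all genes, and the median was -0.07. The cyclin-dependent kinase inhibitor Cdkn1a differed by -0.05, with an interval from -0.38 to 0.29. Elsewhere among the lists, Emcn, a sialomucin of capillary and venous endothelium, read 10.73, 10.61, 10.49, 10.54 and 10.72 at 15 days, against 11.12, 11.07, 10.82, 10.85 and 11.03 at 5 days. It fell without overlap, with a difference of -0.36 ± 0.09 (SE, adjusted p = 0.0312). Of 21 endothelial genes, however, 14 lay above 0, beside 50.6% of all genes. Gas5, a long noncoding RNA that hosts small nucleolar RNAs, fell, with a difference of -0.50 ± 0.14 (SE, adjusted p = 0.0467). Over all 39 lists, with 670 distinct measured genes, 5 genes rose and 6 fell (1.64%, beside 2.28% of all genes). Gclm, Pcna, Emcn and Gas5 were named after their values were seen, as the single calls of their lists.

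Genes of the stress hormone response varied widely among lungs of the same time. Zbtb16, a glucocorticoid-induced zinc finger factor, read 10.11, 9.96, 9.31, 10.92 and 11.80 at 15 days, against 9.53, 11.39, 11.24, 11.53 and 11.85 at 5 days. Mouse 161 stood among the lungs at 5 days and mouse 149 among those at 15 days, so that the difference of -0.68 ± 0.53 (SE, adjusted p = 0.429) was smaller than the spread. Fkbp5, a glucocorticoid-induced cochaperone, read 9.09, 9.19, 9.75, 10.22 and 10.81 at 15 days, against 8.95, 10.80, 10.48, 10.72 and 11.35 at 5 days. Mouse 161 again stood among the lungs at 5 days, and mouse 149 was the lowest of all 10. None of 20 glucocorticoid-induced genes was called, beside 2.28% of all genes. By limma 5 had an unadjusted p below 0.05, beside 25.5% of all genes, and the median was -0.20. The heat shock gene Hspa1a read 9.46, 11.71, 11.48, 12.48 and 12.57 at 15 days, against 11.43, 13.09, 11.80, 12.08 and 11.89 at 5 days. Mouse 157 lay about 2 units below every other lung, in Hspa1b as well (10.88), and neither gene passed (adjusted p = 0.492 for Hspa1a and 0.360 for Hspa1b). Of 19 heat shock genes 18 lay below 0, with a median of -0.32, while 50.6% of all genes lay above 0. None was called, beside 2.28% of all genes. By limma 8 had an unadjusted p below 0.05, beside 25.5% of all genes. The median time difference of this list was -0.33, -0.30 and -0.16 at 0.3, 2 and 90 ppm.

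Immediate early genes included Junb as the single call among 31 members, beside 2.28% called over all genes. By limma 10 had an unadjusted p below 0.05, beside 25.5% of all genes, and the median was 0.14. Nr4a1, an orphan nuclear receptor of the same early response, read 11.57, 12.21, 11.57, 11.13 and 10.53 at 15 days, against 11.40, 10.35, 9.85, 9.73 and 9.58 at 5 days. Its mean difference of 1.22 ± 0.38 (SE, adjusted p = 0.0629) was close to that of Gpc3, but mouse 149 lay among the lungs at 15 days and it missed the threshold. None of 19 clock genes was called, beside 2.28% of all genes. By limma 7 had an unadjusted p below 0.05, beside 25.5% of all genes, and the median was -0.06. Nr1d1, a repressor of the clock, differed by 0.50 ± 0.23 (SE, adjusted p = 0.164), Dbp, an output factor, by 0.04 ± 0.20 (SE, adjusted p = 0.931), and Arntl, the activator of the loop, by 0.02 ± 0.13 (SE, adjusted p = 0.936). Among the period genes, Per1 read 10.09, 11.09, 11.41, 11.34 and 11.23 at 15 days, against 10.97, 11.02, 10.80, 10.71 and 10.85 at 5 days. The lungs at 15 days lay on both sides of those at 5 days, 4 above all of them and mouse 157 below all of them, and the difference of 0.16 ± 0.21 (SE, adjusted p = 0.662) did not pass. Per2 overlapped between the times, with a difference of -0.19 ± 0.23 (SE, adjusted p = 0.647). Per3 read 10.03, 9.94, 9.89, 9.91 and 9.96 at 15 days, against 10.09, 10.07, 10.27, 10.24 and 10.11 at 5 days. The groups did not overlap, but the difference of -0.21 ± 0.08 (SE, adjusted p = 0.115) did not pass. Another probe set of Per3 differed by 1.01, in the opposite direction, with an adjusted p of 0.0487 over all probe sets, and the other 4 by -0.27 to 0.19.

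**Figure D3:**
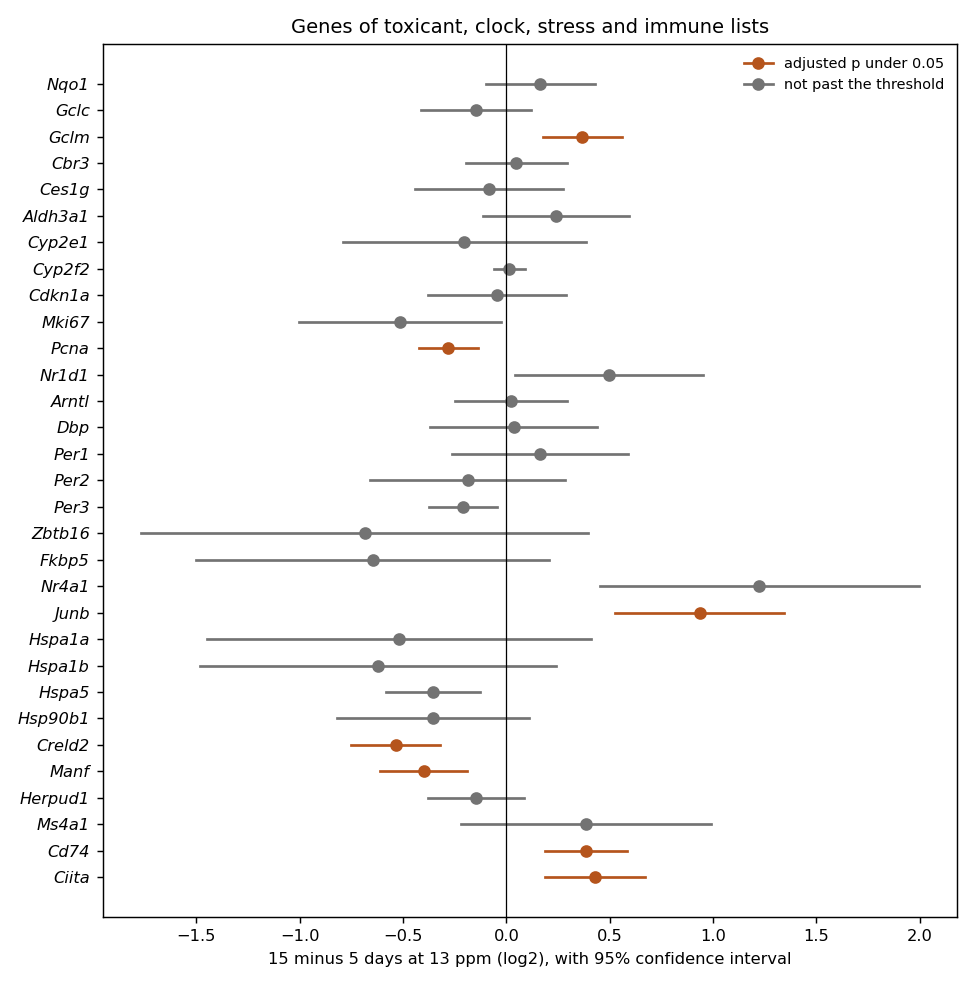
Mean difference between 15 and 5 days at 13 ppm (log2, horizontal axis) for genes of the toxicant, clock, stress and immune lists, with unadjusted 95% confidence intervals from the fit on all mouse arrays. Coloured points passed an adjusted p of 0.05; Gclm, Junb, Cd74 and Ciita lie to the right of 0, Pcna, Creld2 and Manf to the left, and Zbtb16, Fkbp5, Hspa1a and Hspa1b have the widest intervals.

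The same comparison was made at the other concentrations, each in its own animals. By limma 0 genes were called at 0.3 ppm (0.00%; 1898 at an unadjusted p below 0.05, and 0 also with a variance trend and robust moderation), 6 at 2 ppm (0.0435%) and 17 at 90 ppm (0.123%). The 314 genes had the sign they had at 13 ppm in 308 cases at 0.3 ppm (98.1%, beside 74.1% of all genes), in 313 at 2 ppm (99.7%, beside 74.7%) and in 255 at 90 ppm (81.2%, beside 52.9%). Their differences were mostly smaller there. The median of the rises was 0.20, 0.24, 0.42 and 0.11 at 0.3, 2, 13 and 90 ppm. That of the falls was -0.23, -0.25, -0.35 and -0.08. The genes had been chosen for their size at 13 ppm. Lungs at 15 days held 2, 3, 4 and 2 arrays of the low spike-in pattern at 0.3, 2, 13 and 90 ppm, and lungs at 5 days held none, so the spike-in pattern moves with time at every concentration. Of the single genes, Gpc3 differed by 1.09, 1.20, 1.27 and 1.04 from the lowest to the highest concentration, and Junb by 0.65, 0.92, 0.93 and 0.65. Lbh differed by 0.27, 0.56, 0.97 and -0.02, and Creld2 by -0.33, -0.48, -0.54 and -0.11. Other called genes were not largest at 13 ppm. Arhgap32 differed by 1.12, 1.08, 1.05 and 1.24, and Kdm6b by -1.11, -0.97, -1.13 and -1.25.

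**Figure D4:**
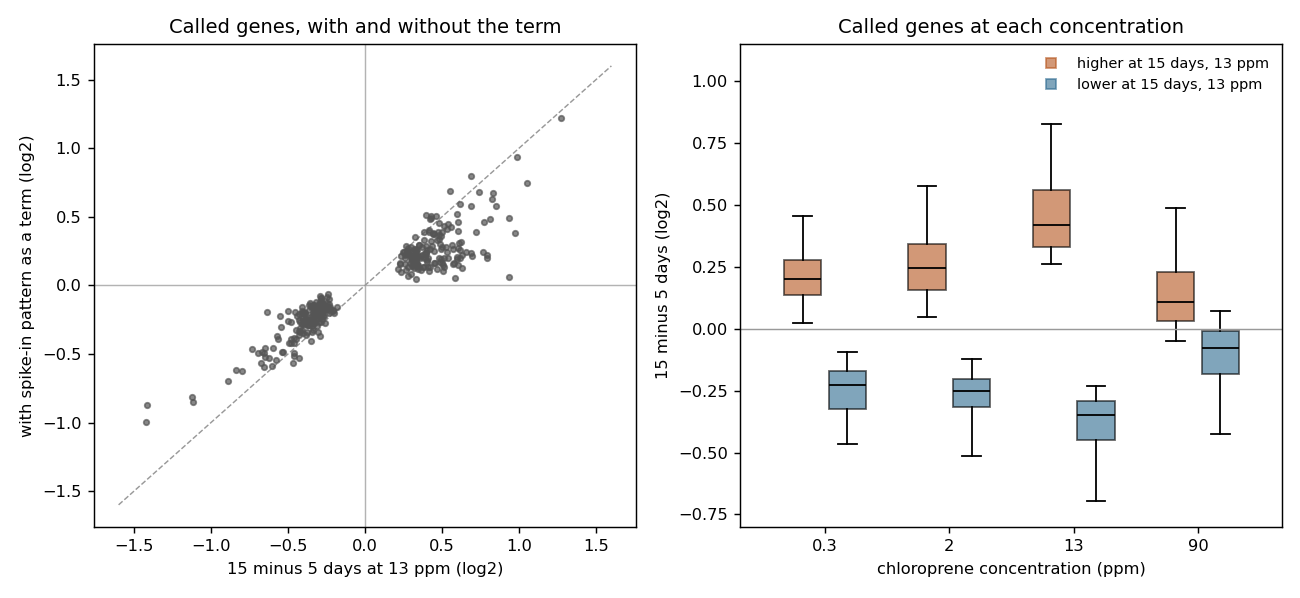
Left, the 314 called genes, with the difference between 15 and 5 days at 13 ppm (log2) on the horizontal axis and the same difference with the spike-in pattern as a term on the vertical axis; the dashed line marks equal values, and all points keep their sign while most lie nearer to 0 with the term. Right, boxes (median, quartiles, whiskers from the 5th to the 95th percentile) of the time difference of the rising and falling genes at each concentration, widest apart at 13 ppm, where they were chosen.

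The difference between concentrations was tested directly. The time difference at 13 ppm minus that at 0.3 ppm was called for 0 genes (0.00%; 345 at an unadjusted p below 0.05) and that against 2 ppm for 0 genes (0.00%; 215), by limma. The smallest p against 0.3 ppm were those of the mitotic spindle gene Dlgap5, the somatostatin receptor gene Sstr4 and Plxdc2, which differed over time by -0.11, 0.14 and 0.15 at 13 ppm and by 0.34, -0.35 and -0.25 at 0.3 ppm. Against 2 ppm they were those of the glutamine transporter gene Slc1a5, Trabd2b and Hhipl1, with 0.15, 0.20 and 0.29 at 13 ppm and -0.17, -0.09 and -0.11 at 2 ppm. Against 90 ppm 1 gene was called (0.00725%; 1597 at an unadjusted p below 0.05): Ccna1, a cyclin best known from germ cells. Its time difference was -0.26 at 13 ppm, where the values were 6.90, 6.12, 6.43, 6.11 and 6.06 at 15 days, against 6.48, 6.62, 6.39, 6.80 and 6.62 at 5 days, and -1.52 at 90 ppm. The gap between these was 1.26 ± 0.21 (SE, adjusted p = 0.0051). At 13 ppm the groups overlapped through mice 157 and 159, most values lay below the filter level of 6.67, and the difference did not pass (adjusted p = 0.256). Without the 9 mice of the series whose duration field conflicts with the title, the call of Ccna1 against 90 ppm was lost. After 5 days the mean of Ccna1 was 5.78 ± 0.21 in lungs at 0 ppm, 6.58 ± 0.16 at 13 ppm and 7.88 ± 0.44 at 90 ppm (SD, n = 5 each). The lungs at 90 ppm after 5 days were the only group with a mean above the filter level. Ccna1 passed the filter because of them, and they also enter the comparison against 90 ppm.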

How the data were processed

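Per the labels, RNA was purified with Trizol, then on RNeasy columns, and biotin-labelled. The deposited table holds log2 signals for each probe set; how the authors summarised and normalized them is not given in the sources used here. They ran from 3.47 to 15.3. Of 45101 probe sets, 34958 had exactly 1 gene symbol; the 932 with several, the 9211 with none and 64 control probe sets were not tested. Probe sets above the 40th percentile (6.67) on at least 5 of 45 mouse arrays were kept, and each gene was represented by its brightest one. A mean per group (9 groups of 5 arrays) was fitted with limma 3.58.1 in R 4.3.3, tested on simulated data, and two-sided p-values got a Benjamini-Hochberg adjustment over all genes within each of 7 comparisons, with a threshold of 0.05. Nothing states separate cages or chambers, so p-values measure the spread between these mice. The text names the 12 largest rises and falls, up to 4 called members of lists with at least 2 calls, genes with the smallest p in the comparisons of concentrations, and a fixed set of toxicant, clock and stress genes; others are named as chosen after their values were seen. The members, the 39 lists and the tests were chosen with earlier results of these data known. Alternatives varied the filter, scaling, probe set rule, covariates, moderation and the arrays used. Promoter sequences are from RefSeq.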

Additional observations from a re-analysis of the deposited data

Results flagged for a closer look

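In 8 of 136 groups of 5 lungs checked over the named genes, 1 lung lay far from the others; chance alone marks about 1 in 20 groups. Mouse 157 at 15 days was low in Gpc3 (9.09, the others 10.09 to 10.30), Arhgap32 (7.35, the others 8.60 to 8.75) and Per1 (10.09, the others 11.09 to 11.41). Mouse 160 at 15 days was low in Nqo1 (9.14, the others 9.28 to 9.33). Mouse 149 at 5 days was low in Manf (11.49, the others 11.88 to 12.03), Zbtb16 (9.53, the others 11.24 to 11.85), Per2 (9.57, the others 10.44 to 10.76) and Herpud1 (12.59, the others 12.99 to 13.14). The time difference of Ccna1 was 1.26 larger at 13 ppm than at 90 ppm on the log2 scale, less negative at 13 ppm, by the test of the difference between the concentrations (adjusted p = 0.0051). Ccna1 passed the filter for low signal because of the lungs at 90 ppm after 5 days, which also enter this test.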

How the results depend on the processing

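The 314 calls at 13 ppm became 0 with the RNA integrity number as covariate (5 arrays without one left out) and 0 with the spike-in term, 14 without mice 157 and 154, 599 with the 3′ minus 5′ control difference as covariate, 851 on the 10 arrays alone, 1335 without the 9 mice whose duration field conflicts with the title, and 678 probe sets when each of 45101 was tested on its own. Leaving out single mice at 13 ppm gave 0 to 1246; the cause was not tested. The spike-in term and the fit without mice 157 and 154 were added after the data were seen. At 0.3 ppm the count of 0 became 2 with the 60th percentile filter, 1 with the control difference, 448 without the conflicting mice and 41 with the spike-in term. At 2 ppm the count of 6 became 15 (60th percentile), 2 (quantile normalization), 16 (mean of probe sets), 0 (RNA integrity number), 0 (control difference), 863 (conflicting mice) and 107 (spike-in term). At 90 ppm 17 became 34 (mean of probe sets), 152 (conflicting mice) and 153 (spike-in term). The single call against 90 ppm became 0 with the 60th percentile filter, which left Ccna1 out, and 0 without the conflicting mice. Other counts stayed within 1.5 times.

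Of 68 named genes, 34 were called. Among the called genes, probe sets above the filter had the opposite sign for Arhgap32 (-0.14), Kdm6b (0.71, 0.0042), Tnrc6a (0.09, 0.11; 6 others agreed in sign), Alcam (0.57; 3 agreed), Sel1l (0.032, 0.028, 0.15; 1 agreed) and Gclm (-0.023). Among the uncalled genes they had it for Per3 (1.01, 0.19, 0.03), Gclc (0.14), Cdkn1a (0.09), Zbtb16 (0.39) and Plxdc2 (-0.44, -0.06). Probe sets below the filter for low signal had the opposite sign for Arhgap32 (-0.11), Taf15 (0.092), Celf2 (0.066, 0.063, 0.0025), Trip11 (0.014), Ascc3 (0.052) and Camsap2 (0.14), while those above it differed by -0.37 to -0.51 for Celf2, -0.55 for Trip11 and -0.54 for Camsap2. Those of the uncalled genes Fkbp5 (0.07) and Sftpc (0.13) had it too. Kdm6b also turned to 0.19 between mice 157 and 154. All 34 kept their sign in every other alternative run, each of which shared arrays with the calls. No paired analysis was possible because animal numbers differ between the groups.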

Other observations

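Genes of the machinery that makes many centrioles in ciliating cells were picked after their values were seen. Deup1, a scaffold of the deuterosome on which centrioles are built in ciliating cells, read 7.64, 7.28, 7.34, 7.39 and 7.40 at 15 days, against 7.58, 8.29, 7.98, 7.78 and 8.40 at 5 days. Mouse 157 alone overlapped with a lung at 5 days, and the difference was -0.59 ± 0.13 (SE, adjusted p = 0.0234). Ccno, a cyclin needed for the same centriole amplification, read 8.03, 7.89, 7.77, 7.71 and 7.61 at 15 days, against 8.14, 8.35, 8.46, 8.13 and 8.30 at 5 days. The groups did not overlap, but the difference of -0.47 ± 0.14 (SE, adjusted p = 0.0587) missed the threshold. Plk4, described above among the largest falls, belongs to the same machinery. Its time difference was -0.30, -0.41, -0.84 and -0.49 at 0.3, 2, 13 and 90 ppm, and so was smaller at 90 than at 13 ppm. At 0.3, 2, 13 and 90 ppm the time difference of Deup1 was 0.04, -0.32, -0.59 and -1.08, and that of Ccno was 0.08, -0.10, -0.47 and -1.34. After 5 days the mean of Ccno was 7.46 ± 0.10 at 0 ppm, 7.52 ± 0.15 at 0.3 ppm, 7.73 ± 0.32 at 2 ppm, 8.27 ± 0.14 at 13 ppm and 9.01 ± 0.39 at 90 ppm (SD, n = 5 each). After 15 days it was 7.59 ± 0.13 at 0.3 ppm, 7.62 ± 0.28 at 2 ppm, 7.80 ± 0.16 at 13 ppm and 7.67 ± 0.24 at 90 ppm. The list of 26 ciliated cell genes had none called at 13 ppm, beside 2.28% of all genes. By limma 3 had an unadjusted p below 0.05, beside 25.5% of all genes, and the median was -0.07.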
